A study of Rattus norvegicus with 2 samples.

Results

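The Egr and Nr4a families are transcription factors of the early response, the wave of genes that a cell switches on within minutes of a stimulus without first making new protein. The 10 genes described here are the zinc finger factors Egr1, Egr2, Egr3 and Egr4, the Egr corepressors Nab1 and Nab2, the orphan nuclear receptors Nr4a1, Nr4a2 and Nr4a3, and Arc, an effector gene of the same response. They were listed by name, with earlier results of these data known, and all 10 were found among the 14218 genes that the array's annotation names through a probe set with a single gene symbol. They have 16 probe sets between them. Each value is the signal of a probe set, a linear intensity that summarises the probes of one stretch of transcript.

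The signals come from astrocytes, glial cells that support neurons, grown from Sprague-Dawley rat hippocampus taken at embryonic day 18, with a genotype given as normal. Control cells carried a red fluorescent protein on a vector with an internal ribosome entry site (IRES2-RFP). The other cells carried 5ppase together with that protein, a construct that the labels write as 5ppase-IRES2-RFP and, in another field, as 55ppase-IRES-RFP. The series set a culture with active calcium signalling (control) against one without it (5ppase), 1 array per group. Neither the share of cells that carried a construct nor the promoter that drove it is given in the sources used here. The labels do not spell out 5ppase, a name in common use for an inositol phosphate 5-phosphatase, which removes the messenger that opens calcium channels of the endoplasmic reticulum.

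With 1 array per group no difference below has a replicate check, no p-value was computed, and the number of arrays limits the precision. The 2 arrays had the same trimmed mean signal (500.2). A signal floor was set at the 40th percentile of both arrays pooled (62.0), and a gene was compared if, at its brightest probe set, both signals exceeded the floor and at least 1 reached the 60th percentile (208.4). Ratios are 5ppase over control on the log2 scale. The only internal repeat was a second probe set: over 1883 genes with 2 compared probe sets the log2 ratios had a spread (SD) of 0.26 between probe sets, which covers probe noise and not differences between cultures.

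Early response genes stay poised in resting cells. Calcium that enters the cytoplasm acts through calmodulin-dependent kinases and the ERK cascade on CREB, which binds the cAMP response element (CRE), and on the serum response factor SRF with its Elk partners, which bind the CArG box. Egr proteins bind a GC-rich site and switch on Nab2, which in turn represses Egr activity, and Nr4a receptors bind an element called the NBRE without a known natural ligand. In brain, Egr1, Nr4a1 and Arc are widely used as marks of recent neuronal activity, and astrocytes also induce Egr1 when stimulated.

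The upstream sequences of 4 members are shown because these members were compared on both arrays and their windows hold the elements named above. Windows are the 250 bases before a transcript start in RefSeq's rat assembly GRCr8, written 5′ to 3′ on the gene's strand. Capitals mark matches, on either strand, to the CRE core TGACG, the CArG box, and the Egr sites GCGTGGGCG and GCGGGGGCG. No genome build is named for the array values, so the windows add sequence context and not a position of the probes. The Egr1 window lies at chr18:26736828-26737077 (plus strand), that of Egr2 at chr20:21054442-21054691 (minus), that of Nr4a1 at chr7:134259888-134260137 (plus) and that of Nab1 at chr9:56545392-56545641 (plus). Those of Egr2 and Nr4a1 lie inside the annotated span of their genes.
Egr1: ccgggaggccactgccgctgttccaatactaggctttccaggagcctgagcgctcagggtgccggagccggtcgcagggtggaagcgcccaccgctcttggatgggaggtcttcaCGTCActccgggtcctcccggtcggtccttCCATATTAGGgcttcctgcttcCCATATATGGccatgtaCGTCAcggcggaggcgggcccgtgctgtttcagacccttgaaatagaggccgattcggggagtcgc
Egr2: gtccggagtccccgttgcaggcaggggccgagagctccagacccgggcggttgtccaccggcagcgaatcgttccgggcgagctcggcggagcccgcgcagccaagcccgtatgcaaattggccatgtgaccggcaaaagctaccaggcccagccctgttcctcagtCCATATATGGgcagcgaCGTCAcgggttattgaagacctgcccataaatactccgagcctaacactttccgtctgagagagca
Nr4a1: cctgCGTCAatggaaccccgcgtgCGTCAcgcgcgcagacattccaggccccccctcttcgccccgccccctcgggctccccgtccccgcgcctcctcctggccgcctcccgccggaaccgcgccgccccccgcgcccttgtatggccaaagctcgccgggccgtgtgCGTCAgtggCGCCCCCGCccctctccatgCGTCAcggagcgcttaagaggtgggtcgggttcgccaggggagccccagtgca
Nab1: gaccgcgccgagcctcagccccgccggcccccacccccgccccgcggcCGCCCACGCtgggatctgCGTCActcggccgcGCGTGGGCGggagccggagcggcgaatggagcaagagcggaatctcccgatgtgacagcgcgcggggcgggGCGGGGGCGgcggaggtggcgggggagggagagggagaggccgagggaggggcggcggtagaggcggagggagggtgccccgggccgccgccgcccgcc

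In the Egr1 window there were 2 CArG boxes (CCATATTAGG and CCATATATGG) and 2 CRE cores, and in the Egr2 window 1 of each. Egr1 and Egr2 carried the same 10 letters CCATATATGG at 83 to 74 bases before the start and a CRE core, read as CGTCA, at 66 to 62 bases before it, 7 bases further on. A looser form of that arrangement was picked out after the windows were seen: any CArG box followed 7 bases on by CGTCA, anywhere in the window. It occurred in 3 of 33469 RefSeq windows of this length, those of Egr1, Egr2 and the ERK phosphatase gene Dusp5. Dusp5 was dim on both arrays, at 96.7 in control and 83.2 in 5ppase. The Nr4a1 window held 4 CRE cores, no CArG box and 1 Egr site (GCGGGGGCG, read on the other strand). The Nab1 window held 3 Egr sites and 1 CRE core.

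**Figure D1:**
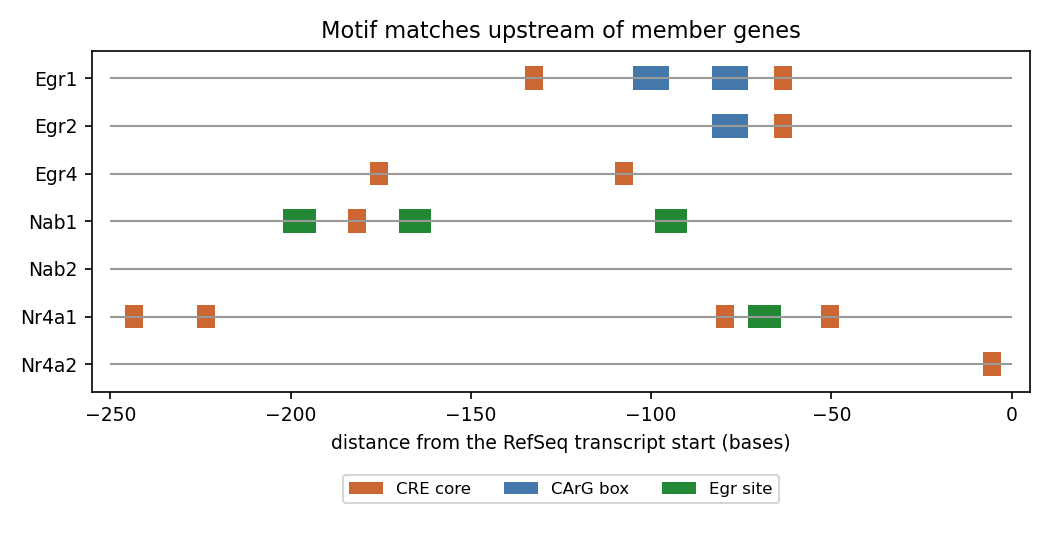
Matches to the CRE core, the CArG box and the Egr sites in the 250 bases upstream of the 7 members with a RefSeq window; the horizontal axis is the distance from the transcript start in bases. The CArG box and the CRE core nearest the start lie at the same distances in Egr1 and Egr2, and the Nab2 line is empty.

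RefSeq windows were matched for 7 of the 10 members, without Egr3, Nr4a3 and Arc. Of these 7, 6 held a CRE core, against 18.2% of all windows and 31.7% of the 6979 compared genes with at least 1 window. The 6 include Nr4a2, with its only match at 8 to 4 bases before the start. Its window, like those of Egr2 and Nr4a1, lies inside the annotated span of its gene. A CArG box stood in 2 of the 7, against 1.5% of all windows and 1.42% of compared genes. The full CRE TGACGTCA (1.59% of windows, 3.22% of compared genes) and the NBRE AAAGGTCA (1.24% and 0.688%) were found in none of the 7. An Egr site stood in 2 of the 7. GCGTGGGCG occurred in 0.478% of all windows and 1.09% of compared genes, and GCGGGGGCG in 2.45% and 5.07%. The full CRE contains the CRE core, so these matches overlap. A match describes letters in a window and is not a measured binding site.

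Of the Egr factors, Egr1 and Egr2 were lower in 5ppase. Egr1, which couples growth factor and calcium signals to gene expression, had a signal of 6283 in control and 4108 in 5ppase (log2 ratio -0.61, 1.53-fold lower). Of the 8261 compared genes, 4.82% had a ratio that low. Egr2, the factor known for driving myelination in Schwann cells, gave 563 and 341 (-0.72), and 3.27% of compared genes lay as low. The second probe set of Egr2 gave 70.1 and 43.5, above the floor in control only, and 29.4% of probe sets as bright in control had a ratio that low. The ratio of Egr2 therefore rests on its brightest probe set.

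Egr3 and Egr4 were too dim to be compared. Egr3, which in brain and muscle spindle development acts downstream of calcineurin and growth factor signals, gave 97.0 in control and 6.0 in 5ppase on its single probe set. Among the 1848 other probe sets whose control signal lay within 1.2-fold of that of Egr3, 0.541% had a ratio as low. The control signal itself did not reach the 60th percentile, and the floor is a percentile and not a detection call, so no fold is given. Egr4, a factor of neurons and germ cells, was under the floor on both arrays at both probe sets, with 37.0 and 59.7 at one and 5.9 and 14.9 at the other. Of probe sets as dim as these in control, 18.6% and 43.8% had a ratio as high.

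**Figure D2:**
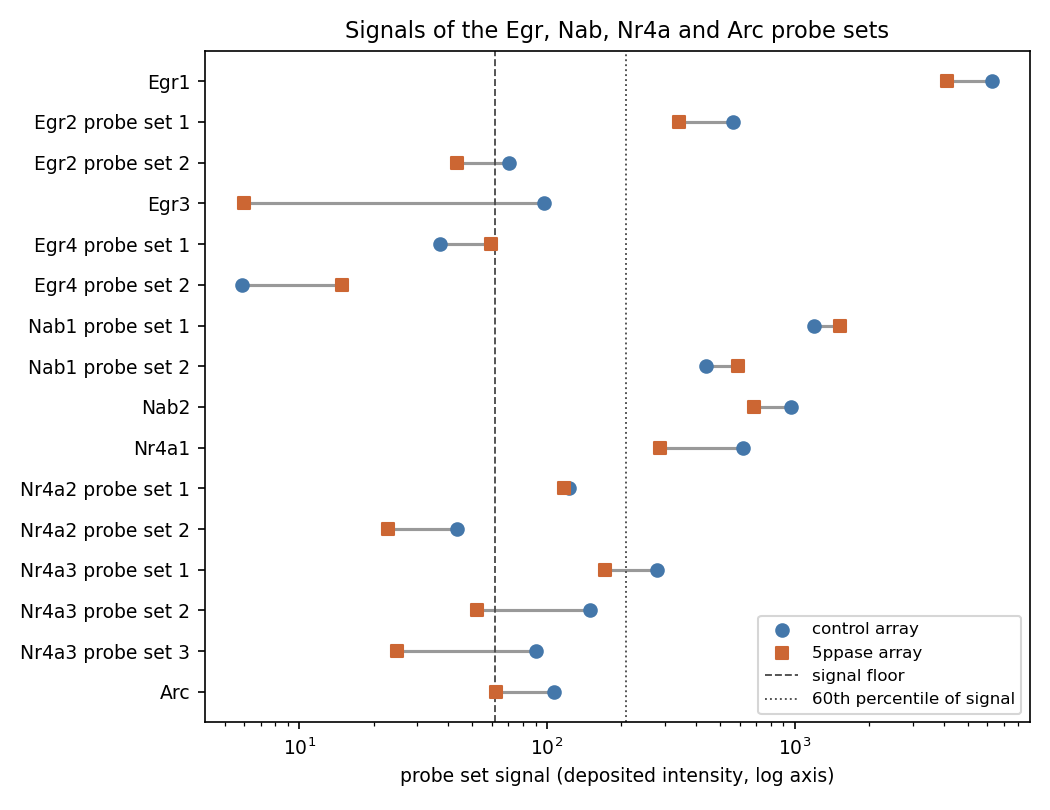
Signal of each of the 16 probe sets on the control array (circles) and the 5ppase array (squares), on a log axis, with the signal floor of 62.0 (dashed) and the 60th percentile of 208.4 (dotted). Squares lie left of circles for 12 probe sets and right of them for the 4 of Nab1 and Egr4.

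The Nab corepressors, which bind Egr1, Egr2 and Egr3 and restrain them, went different ways. Nab2, itself an Egr target in many cells, had 971 in control against 688 in 5ppase (log2 ratio -0.50, 1.41-fold lower), a ratio that 7.95% of compared genes reached. Nab1, the more evenly expressed of the pair in most tissues, gave 1194 and 1527 (0.35), and its second probe set gave 438 and 589 (0.43). Both Nab1 probe sets were higher in 5ppase by less than 1.5-fold, and 12.2% of compared genes had a ratio as high as the brighter one. Egr1 at 1.53-fold lay just inside the 1.5-fold threshold used for counts and Nab2 at 1.41-fold just outside it. The Nab1 window held 3 Egr sites whereas that of Nab2, which lies inside the annotated span of its gene, held no match to any motif searched.

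Among the nuclear receptors Nr4a1 and Nr4a3 were lower in 5ppase. Nr4a1 (Nur77), induced by calcium in neurons and by antigen in lymphocytes, had 622 in control against 287 in 5ppase (log2 ratio -1.11, 2.16-fold lower). It had the ratio furthest from 0 among the compared members, and 1.03% of compared genes lay as low. Nr4a3 (also called NOR-1), which shares the DNA-binding element of Nr4a1, gave 278 and 172 (-0.69) at its brightest probe set. A ratio that low was found in 3.63% of compared genes and in 8.62% of probe sets as bright in control. Its other probe sets gave 149.6 and 52.4, and 90.4 and 24.8, each above the floor in control only. All 3 probe sets of Nr4a3 read higher in control, but the ratio rests on the brightest, since the 5ppase signals of the others were under the floor.

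Nr4a2 and Arc lay above the floor on both arrays but were too dim to be compared. Nr4a2 (Nurr1), the receptor that midbrain dopamine neurons need to form, gave 123 and 118 at its brightest probe set and 43.2 and 22.9, both under the floor, at the other. Of probe sets with a like control signal 48.9% and 32.9% had ratios as low. Arc, whose protein regulates glutamate receptor uptake at synapses of neurons, gave 106.5 in control and 62.4 in 5ppase, the latter barely above the floor. Among probe sets as bright as Arc in control, 17.1% had a ratio that low.

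**Figure D3:**
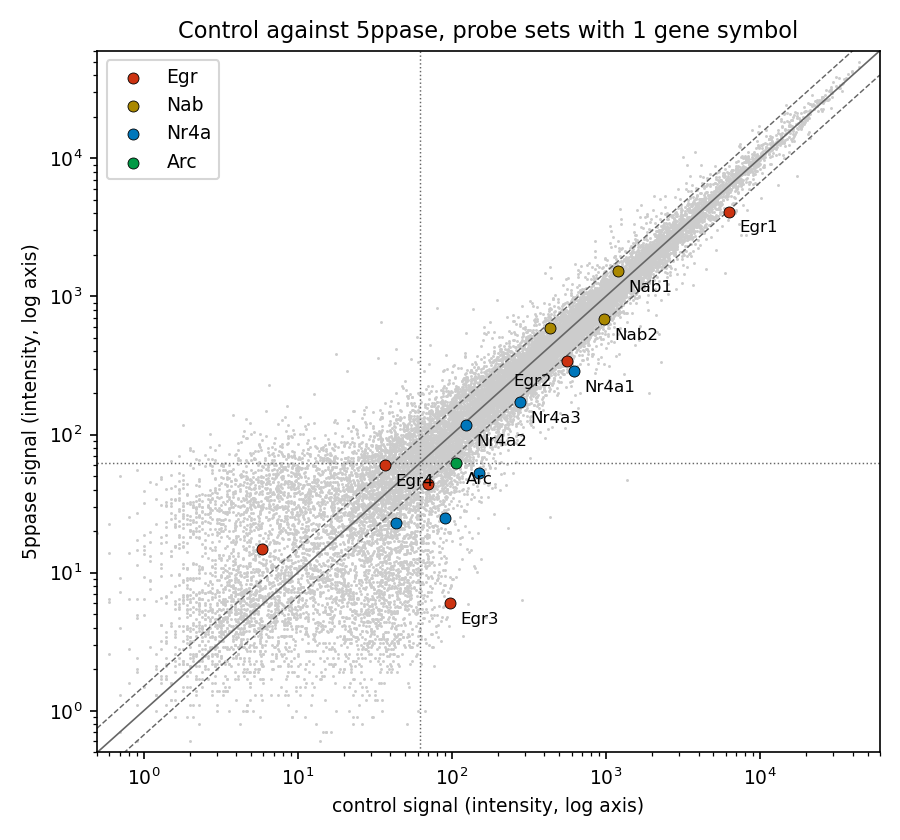
Signal on the 5ppase array against signal on the control array, both on log axes, for all 20832 probe sets with 1 gene symbol (grey) and for the 16 member probe sets (coloured by family; names stand at the brightest probe set of a gene). The solid line marks equal signals, dashed lines 1.5-fold and dotted lines the floor; the grey cloud widens below the floor, and Egr3, Egr4 and the dim probe sets of Egr2, Nr4a2 and Nr4a3 lie under it on the 5ppase array.

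In all, 6 of the 10 genes were compared on both arrays. Of these, 4 (Nr4a1, Egr2, Nr4a3 and Egr1) were at least 1.5-fold lower in 5ppase, against 5.46% of all compared genes, and 0 were at least 1.5-fold higher, against 5.25%. At 2-fold, 1 (Nr4a1) was lower and 0 were higher, where 1.42% and 1.5% of compared genes were. The median log2 ratio of the 6 was -0.65 and that of all compared genes -0.017. A dim gene enters the comparison if 1 array reads it brightly enough, so these counts describe the 6 alone: 4 members (Egr3, Egr4, Nr4a2 and Arc) are in none of them. Nr4a3, counted as lower, entered in this way: it reached 208.4 in control (278) but not in 5ppase (172). The demand on the brighter array was also dropped, a choice made after the data were seen. Arc and Nr4a2 then joined and 5 of 8 were at least 1.5-fold lower, against 6.17% of 9780 genes. The gene gained was Arc, barely above the floor in 5ppase (62.4). Of probe sets as bright as Arc in control, 17.1% had a ratio that low.

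**Figure D4:**
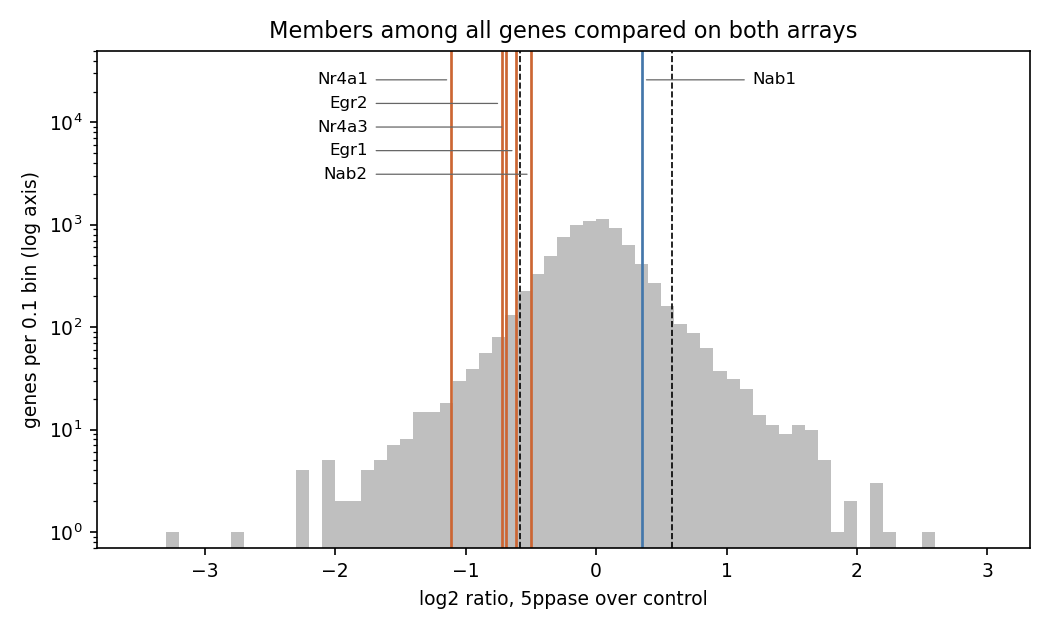
Distribution of log2 ratios (5ppase over control) of the 8261 compared genes, as genes per 0.1 bin on a log axis, with the 6 compared members as vertical lines and 1.5-fold as dashed lines. The lines of Nr4a1, Egr2, Nr4a3 and Egr1 lie left of the dashed line at 1.5-fold lower, and those of Nab2 and Nab1 lie between the dashed lines.

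Other early response genes were listed to set beside these members. Of 40 such genes 38 were on the array and 29 were compared. At least 1.5-fold lower in 5ppase were 6 of the 29 (20.7%, against 5.46% of all compared genes). That much higher were 2 of the 29, near the 5.25% of all compared genes. Fosb, an AP-1 subunit, gave 326 and 118 (log2 ratio -1.46), and Fos gave 8260 and 4238 (-0.96). Fosb, counted among the 6, entered the comparison through control alone, since its 5ppase signal did not reach the 60th percentile. The other 4 lower genes, named after their values were seen, were Rgs2, a brake on Gq-coupled receptors (-0.89), Ier2 (-0.78) and the AP-1 subunits Junb (-0.77) and Jun (-0.67). The prostaglandin synthase Ptgs2, itself a calcium-responsive gene, gave 339 and 852 (1.33) and the Krüppel-like factor Klf4 gave 657 and 1565 (1.25), both higher in 5ppase. The remaining 21 lay within 1.5-fold, among them Dusp1 (-0.10) and Gadd45b (0.0006), whose names were likewise chosen once the values were known. The list median was -0.11.

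**Figure D5:**
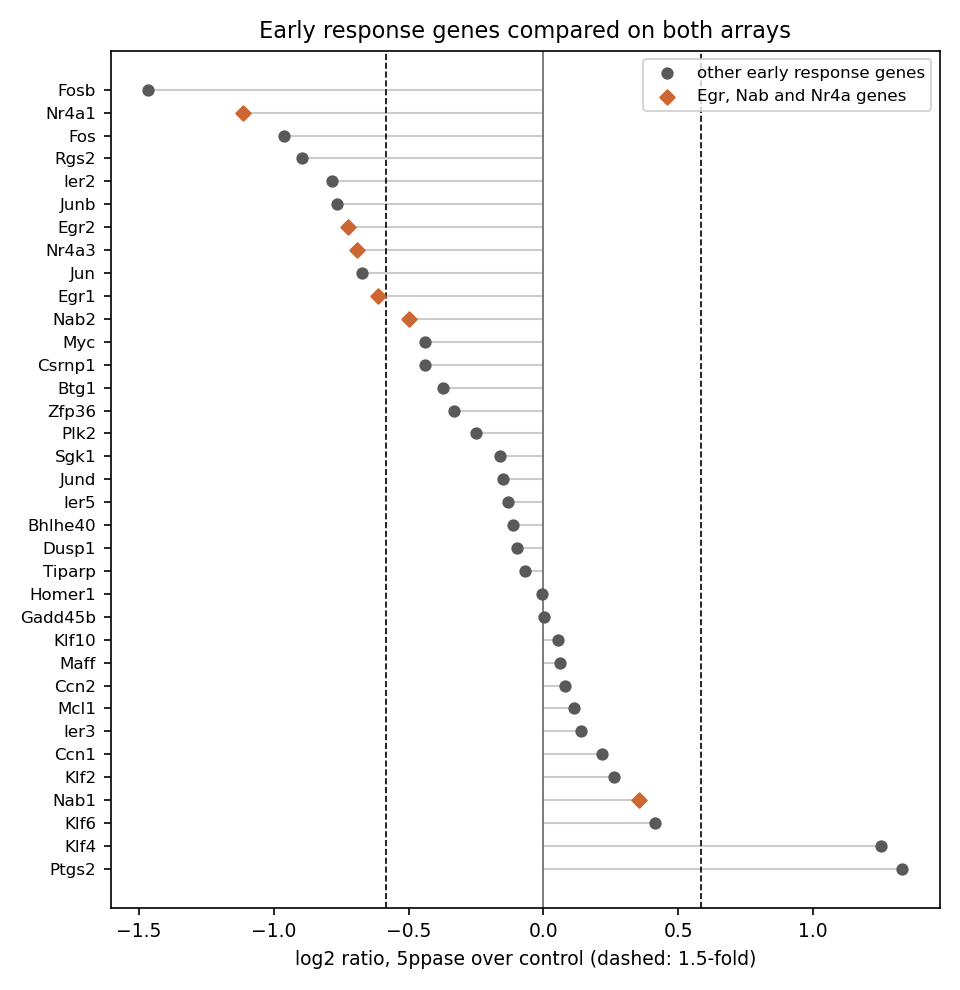
Log2 ratios (5ppase over control) of the 29 compared genes of the early response list (circles) and the 6 compared members (diamonds), ordered by ratio, with 1.5-fold as dashed lines. Nr4a1 stands second after Fosb at the lower end, Ptgs2 and Klf4 stand apart at the upper end, and most of the list lies between the dashed lines.

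Of the early response genes with a second probe set compared on both arrays, Jun (2604 and 1426, log2 ratio -0.87) and Rgs2 (310 and 124, -1.32) were lower there too. Klf2 was higher at its second probe set (234 and 478, 1.03) and within 1.5-fold at its brightest (0.26). The dim second probe set of Fos gave 73.4 and 129.3, the other way from its bright one, and was not compared.

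Genes that act upstream of this response were counted in the same way. Of 24 regulators on the array (SRF and Elk factors, CREB and its coactivators, Mef2 factors and kinases of the ERK cascade) 21 were compared, 1 was at least 1.5-fold lower (4.76%) and 0 were that much higher, near the 5.46% and 5.25% of all compared genes. The lower one was Rps6ka5, the MSK1 kinase that phosphorylates CREB, at 245 and 151 (log2 ratio -0.70). Rps6ka5 was compared because of its control signal only, as its 5ppase signal was under the 60th percentile. Srf gave 891 and 1003 (0.17) and Creb1 gave 404 and 370 (-0.13), values named after they were seen. The list median was -0.056.

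Genes reported elsewhere as Egr targets, a list drawn from general knowledge with no source at hand, went both ways. Of 13 compared, 1 was at least 1.5-fold lower, the astrocyte metallothionein Mt3 (8151 and 2767, log2 ratio -1.56), and 1 was that much higher, the coagulation initiator F3 (1541 and 2622, 0.77). These counts are near those of all compared genes (5.46% lower and 5.25% higher). Of the 13, 5 had a negative and 8 a positive ratio. The list median was 0.013. Of the partners and reported targets of Nr4a receptors, from the same kind of list, 5 of 16 were compared: Spp1 was lower (1659 and 614, -1.43), the neurotrophin Bdnf was higher (533 and 801, 0.59), and the other 3 lay within 1.5-fold, too few genes to set against the share of all compared genes.

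Compared genes whose upstream windows resemble those of Egr1 and Egr2 were counted as well, after the windows had been seen. Of the compared genes, 33 had both a CArG box and a CRE core in 1 window. At least 1.5-fold lower were 2 of the 33 (6.06%, near the 5.46% of all compared genes), and these were Egr1 and Egr2 themselves. The other 31 lay within 1.5-fold with a median log2 ratio of 0.093. Without members and early response genes, 3.36% of the 2200 genes with a CRE core were at least 1.5-fold lower, and 5.82% of the 4691 genes with neither motif. That much higher were 4.91% and 4.95%. Of the 95 genes with a CArG box 5.26% were that much lower and 7.37% higher. Of the 414 with an Egr site 6.28% were that much lower and 4.59% higher, and of the 6538 without one 4.99% and 5.02%.

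Markers of the cells in these cultures moved as well. Gfap, which builds the glial filament network, had 17525 in control against 7408 in 5ppase (log2 ratio -1.24). Of 14 astrocyte markers on the array 10 were compared, 7 of them at least 1.5-fold lower against 5.46% of all compared genes. S100b (0.05) and the connexin gene Gja1 (0.07), both chosen with their values in view, lay near 0. The summed signal of the 14 was 57120 in control and 34430 in 5ppase. The neuron markers, of interest because Arc, Egr3 and Egr4 are strongly expressed in neurons, summed to 7405 and 13740. Stmn2, a tubulin regulator, at 3766 and 11065 (1.55), rose by more than the whole difference, so the other markers together summed lower in 5ppase. Tubb3 (1.72) was also higher, while Gad1 (-1.24), Dlg4 (-0.68) and Map2, a neuronal microtubule protein at 1737 and 1210 (-0.52), were lower. Another 8 of the 16 were under the floor on both arrays, among them Rbfox3 (7.7 and 35.7) and Snap25 (7.7 and 7.2). The 11 microglial markers summed to 1334 and 2623, a difference carried by Tmem119 (1078 and 2273, 1.08), the only one compared; 7 were under the floor on both arrays, and Aif1 was at 56.1 and 71.5. Oligodendrocyte lineage markers summed to 3912 and 2250, with Cldn11 at 1371 and 47.2 but Cspg4 higher (261.5 and 629.5). Endothelial and pericyte markers summed to 2558 and 1690, with Ocln at 1212 and 384 but Flt1 at 74.1 and 127.5. Fibroblast and meningeal markers summed to 96080 and 91220, sums made up mostly of the collagen genes Col1a1, Col1a2 and Col3a1. Of 8 compared, 4 were at least 1.5-fold lower, against 5.46% of all compared genes. Among the 4 were Mgp (1902 and 199, log2 ratio -3.26), Igfbp5 (2218 and 530, -2.06) and Pdgfra (-0.66). Pdgfra is also in the oligodendrocyte lineage list, so its signal is in the sums of both lists. Of the 8, Thy1 was the 1 at least 1.5-fold higher (0.87). The part of these differences in the values of the Egr and Nr4a genes was not tested. In such bulk RNA fewer cells of a type and less RNA per cell cannot be told apart.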

How the data were processed

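Expression was measured on 1 single-colour Affymetrix array per group, control and 5ppase, grouped by title. The deposited values are linear intensities per probe set. The submitters' processing notes name MAS5; version and settings were not given in the sources used, and no detection calls entered. Of 31099 probe sets 20832 carried 1 gene symbol in the platform annotation, and current symbols were looked up in a rat RefSeq table (GRCr8).

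Both arrays were set to 1 trimmed mean (2% removed at each end), and the probe set of highest mean signal stood for its gene. Signals under the floor were raised to it before log2, which changed no ratio of a compared gene, since both its signals exceeded the floor. Shares of probe sets with a like control signal used ratios without the floor. No test was run, as each group has 1 array. The members and the gene lists were chosen with earlier results of these data known. All members were named with every probe set; of each other list up to 4 genes at least 1.5-fold apart were named or, if none was, the 2 brightest; Gfap, Map2 and Aif1 were named whatever their values. Further genes of the lists, among them early response genes beyond 4 and genes within 1.5-fold, and further cell type markers were named after their values were seen. No gene was named for a like pattern, since 2 arrays give 1 ratio per gene. Calculations used Python 3.11.15 with pandas 2.3.3, NumPy 2.4.6 and, for loess, statsmodels 0.14.6. The calling procedure was tested on simulated data. Alternatives were other scalings, floors, a pseudocount, other choices of probe set and a 2-fold threshold. No sample column was left unused (0).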

Additional observations from a re-analysis of the deposited data

How the results depend on the processing

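The log2 ratios of the 6 compared members kept their sign and moved by less than the spread between probe sets under all 60 alternative values computed, from -1.14 to -1.08 for Nr4a1, -0.75 to -0.69 for Egr2, -0.72 to -0.66 for Nr4a3, -0.65 to -0.61 for Egr1, -0.53 to -0.46 for Nab2 and 0.32 to 0.43 for Nab1. Many of these alternatives could not move a ratio, since the arrays already shared a trimmed mean and a floor changes no ratio of signals above it. Only Nab1 had a second compared probe set, so the choice of probe set left the other members unchanged. Nr4a3 was not compared with the floor at the 60th percentile. There 3 of 5 members were at least 1.5-fold lower, against 3.81% of 5696 genes. The count of 4 members lower was 1 at 2-fold and 0 of the 1 member with a compared second probe set. When a pseudocount (6.4) replaced the floor and the filter it was 6 of 10, against 12.6% of 14218 genes. With that pseudocount 1 (Egr4) was at least 1.5-fold higher, against 14.1%. The 6 lower early response genes were 1 at 2-fold (Fosb), against 1.42% of all compared genes. They were 5 of 23 at the 60th percentile floor, where Fosb was not compared, against 3.81% of all genes compared there. With second probe sets 2 of 7 were lower, against 6.69%, and 1 was higher in place of 2, against 6.11%. Over all genes, 451 were at least 1.5-fold lower and 434 higher of 8261, but 217 and 220 of 5696 at the 60th percentile floor. The counts were 1785 and 1998 of 14218 with the pseudocount and 126 and 115 of 1883 over second probe sets. No paired analysis was possible because each group has 1 array, and for the same reason no array could be left out.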
